A study of Mus musculus with 27 samples.

Results

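Metallothionein, iron-storage and antioxidant genes were followed across 8 groups of C57BL/6 mouse cells measured on 27 Illumina bead arrays. The set holds 10 genes chosen by name: Mt1, Mt2, Fth1, Ftl1, Hmox1, Nqo1, Gclm, Srxn1, Txnrd1 and Selenop. They are 10 of the 19057 genes with a probe that carries a single symbol, and each was among the 12814 genes detected on at least 3 arrays and tested. Together they have 16 probes, of which 15 passed that filter. ESdM 22 and ESdM 20 are cultures grown from mouse embryonic stem (ES) cells for more than 51 days, with 3 arrays each, and the series title presents such cells as microglia derived from ES cells. Cells labelled microglia and astrocytes came from brain at day 3, and neurons from brain at embryonic day 15 to 16, with 3 arrays for each. Naive CD8 T cells (CD8 Tnaive, 5 arrays) came from the spleen at 6 to 8 weeks of age. MF (4 arrays) and BM-DC (3 arrays) came from bone marrow and carry the age day 7; the labels do not spell out either name, and they are taken to mean macrophages and dendritic cells. All groups share the strain, and the labels give no drug, genotype change or method of cell purification. The comparisons ask how ES-cell-derived microglia-like cells stand beside cells labelled microglia, other brain cells, bone marrow myeloid cells and T cells.

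Metallothioneins (Mt1, Mt2) are small cysteine-rich proteins that bind zinc and copper, and their genes respond to metals through the transcription factor MTF1. Ferritin stores iron in a shell of heavy and light chains (Fth1, Ftl1), while haem oxygenase 1 (Hmox1) opens haem and frees its iron, a task for which macrophages that clear red cells are known. Nqo1 (a quinone reductase), Gclm (the modifier subunit of the enzyme that starts glutathione synthesis), Srxn1 (sulfiredoxin, which repairs oxidised peroxiredoxins) and Txnrd1 (cytosolic thioredoxin reductase) are well-known targets of NRF2, a transcription factor that binds antioxidant response elements. Selenop encodes selenoprotein P, a secreted selenium carrier that several tissues take up through the receptor Lrp8. In brain, glial cells are known as the main site of metallothionein and antioxidant gene expression, and microglia as an iron-storing cell.

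The sequences before the starts of these genes were read from RefSeq promoter windows (build GRCm38.p6), which matched 9 of the 10 members by symbol, with 14 windows in all; Hmox1 had none. The 250 bases upstream of each start were searched on both strands for the antioxidant response element, written TGACNNNGC (ARE), and for the metal response element core, written TGCACNC or TGCGCNC (MRE). The Mt2 window held 3 MRE matches, 223, 128 and 50 bases upstream of the start, and 1 ARE match 79 bases upstream. Mt1 held 1 MRE match at 23 bases, Srxn1 1 at 19 bases, and Gclm 2, of which the one at 138 bases overlaps the Gclm ARE match at 134 bases. One of the 3 Txnrd1 windows held an ARE match at 92 bases, and the windows of Nqo1, Fth1, Ftl1 and Selenop held neither run of letters. Among all 32851 windows of the same length, 10.2% held an ARE match, 21.4% an MRE match and 0.77% at least 3 MRE stretches. These matches describe letters, not binding. The counts depend on the annotated start and cover only the 250 bases before it. Sequence beyond these windows was not searched, so the counts are not those of a whole promoter. The 5 windows shown are those of the metallothioneins and of the NRF2-linked members with a match, all on the plus strand and directly upstream of an annotated start. They are Mt1 at chr8:94178839-94179088, Mt2 at chr8:94172368-94172617, Srxn1 at chr2:152105274-152105523, Gclm at chr3:122245307-122245556 and Txnrd1 at chr10:82858956-82859205. Another Txnrd1 window, at chr10:82833701-82833950, lies further upstream, so the start used for the one shown is not the first of that gene. Capitals mark the MRE matches in the first 3 sequences and the ARE match in the Gclm and Txnrd1 sequences.
Mt1: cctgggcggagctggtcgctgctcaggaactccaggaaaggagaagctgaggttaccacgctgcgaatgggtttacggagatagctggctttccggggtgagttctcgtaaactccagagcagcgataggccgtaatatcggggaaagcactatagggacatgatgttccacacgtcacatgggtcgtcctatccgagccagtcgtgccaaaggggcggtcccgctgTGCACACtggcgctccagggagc
Mt2: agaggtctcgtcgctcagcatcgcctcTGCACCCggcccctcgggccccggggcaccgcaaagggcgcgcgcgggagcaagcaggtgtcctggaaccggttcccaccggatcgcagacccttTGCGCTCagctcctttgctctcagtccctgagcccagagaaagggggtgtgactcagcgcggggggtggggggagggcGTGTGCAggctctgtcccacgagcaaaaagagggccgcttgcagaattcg
Srxn1: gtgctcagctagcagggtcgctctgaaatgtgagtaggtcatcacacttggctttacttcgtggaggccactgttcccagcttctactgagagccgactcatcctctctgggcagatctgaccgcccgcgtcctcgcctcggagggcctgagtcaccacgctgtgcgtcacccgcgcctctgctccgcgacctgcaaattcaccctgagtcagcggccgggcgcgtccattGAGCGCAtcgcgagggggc
Gclm: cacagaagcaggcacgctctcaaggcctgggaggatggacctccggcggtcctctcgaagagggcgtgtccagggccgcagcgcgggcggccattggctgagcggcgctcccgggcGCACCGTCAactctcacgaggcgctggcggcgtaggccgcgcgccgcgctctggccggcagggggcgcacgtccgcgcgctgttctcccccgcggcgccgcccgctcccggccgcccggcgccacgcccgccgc
Txnrd1: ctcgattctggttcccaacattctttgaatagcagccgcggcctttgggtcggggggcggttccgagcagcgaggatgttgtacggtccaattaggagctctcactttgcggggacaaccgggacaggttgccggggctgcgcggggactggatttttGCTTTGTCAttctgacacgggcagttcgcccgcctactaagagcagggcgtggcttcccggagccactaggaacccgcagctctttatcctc

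The labels were set against marker genes before the members were read. On the arrays labelled microglia, 10 of 11 macrophage lineage genes were detected on all 3 arrays, but 7 of 9 microglia core genes, Tmem119, P2ry12 and Cx3cr1 among them, were detected on none. The ESdM arrays showed 8 of the 11 macrophage genes throughout and 5 of the 9 core genes on no array of either line. Arrays labelled astrocyte detected 8 of 10 astrocyte genes on every array and also 7 of the 9 microglia core genes and all 11 macrophage genes. Neuron arrays detected 8 of 10 neuron genes on every array, CD8 Tnaive arrays 6 of 7 T cell genes (Cd8a on none) and BM-DC arrays 6 of 10 dendritic cell genes together with 7 of 7 granulocyte genes. The median raw intensity was 27.6 to 28.6 on BM-DC arrays and 80.1 to 113 on all others, and 14247 to 17533 probes were detected per array. Microglia and both ESdM lines shared 2 chips, astrocytes and neurons shared 1, and for every other comparison chip and group cannot be told apart. In these bulk samples fewer cells of a type and less RNA per cell cannot be told apart.

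Levels are log2 normalized intensities of the brightest probe of a gene, and probes that were not detected lie near 4.28. The upper end of the scale is 14.61, the value that quantile normalization gives to the brightest probe of every array. Levels of different genes come from different probes and are not set against each other. A gene was called in a comparison at a limma adjusted p below 0.05 (Benjamini-Hochberg over all genes tested) provided that the group means also lay at least 1 log2 unit apart.

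Mt1 stood at the top of the scale on ESdM, microglia-labelled and astrocyte arrays. It was the brightest of all probes on 3 of 3 ESdM 22 arrays (14.61 on each) and on 2 of 3 ESdM 20 arrays (14.44, 14.61 and 14.61). The arrays labelled microglia were at 14.55 on each array, and the astrocyte arrays at 14.49, 14.44 and 14.49. The arrays of these 4 groups lie between 14.44 and 14.61, next to the ceiling, so an order among them cannot be read from this scale; with median scaling in place of quantile normalization astrocytes had the highest mean. Mt1 was at 10.92, 11.50 and 10.90 on neuron arrays and at 6.83, 6.62, 7.44, 5.59 and 5.93 on CD8 Tnaive arrays. MF arrays had 14.04, 13.82, 14.07 and 13.77, and BM-DC arrays 12.16, 12.48 and 12.52. The T cell arrays were the lowest and overlapped with no other group. Below the 4 top groups each step from MF to BM-DC, from BM-DC to neurons and from neurons to CD8 Tnaive passed the call (adjusted p at most 0.000202 by limma), while astrocytes and MF differed by 0.55 (adjusted p = 0.0706). The spread of the group means, 8.13 on the log2 scale, was wider than that of 99.2% of the genes tested.

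Mt2, the companion metallothionein gene, was higher on ESdM, microglia-labelled and astrocyte arrays than on the arrays of the other 4 groups. Its levels were 7.25, 7.90 and 6.99 in ESdM 22, 6.97, 7.37 and 7.87 in ESdM 20 and 7.68, 7.94 and 7.52 on the arrays labelled microglia. Astrocyte arrays had 7.43, 7.41 and 7.79, which overlaps all 3. MF arrays lay lower, at 5.59, 5.46, 5.55 and 5.24, and BM-DC arrays lower again, at 4.67, 4.85 and 4.73. In neurons 2 of 3 arrays detected the gene, at 4.89 and 4.96. In CD8 Tnaive 2 of 5 arrays did, at 4.67 and 5.38. No neighbours among the top 4 groups differed (adjusted p from 0.605 to 1.00, limma), ESdM 22 exceeded MF by 1.92 (adjusted p = 9.3e-08), and BM-DC, neurons and T cells were at the detection limit.

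The Fth1 probe was read close to the upper end of the scale. It was the brightest probe on all 3 arrays labelled microglia and among the 5 brightest probes on 14 of the 27 arrays. Group means were 14.55 in both ESdM lines, 14.61 on the arrays labelled microglia and 14.46 in astrocytes. They were 13.35 ± 0.11 in neurons (SD, n = 3), 13.04 ± 0.08 in CD8 Tnaive (n = 5), 14.15 ± 0.34 in MF (n = 4) and 14.34 ± 0.08 in BM-DC (n = 3). On this probe neurons and T cells were the 2 low groups, and the other 6 lie close to the ceiling. The second Fth1 probe had 13.50, 14.39, 12.98 and 13.48 on MF arrays, which overlaps neurons (13.28 to 13.57) and CD8 Tnaive (13.15 to 13.33). With median scaling BM-DC had the highest Fth1 mean and neurons the lowest. Ftl1 had another order. It was highest in MF (14.07, 13.85, 14.04 and 14.35) and BM-DC (14.13, 14.15 and 14.17), whose arrays overlap. The arrays labelled microglia had 12.97, 13.35 and 12.97, ESdM 22 12.86, 13.28 and 13.02, and ESdM 20 12.69, 12.79 and 12.98. Astrocytes (12.11, 12.47 and 12.16), neurons (12.61, 12.02 and 11.68) and CD8 Tnaive (12.30, 12.02, 11.95, 11.45 and 11.29) were lowest and overlapped. A further Ftl1 probe was detected on the 3 BM-DC arrays (5.30 to 5.85) and on no other array. Ferritin genes have near-identical processed copies in the mouse genome, and whether these bind the probes was not tested.

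Hmox1 and Selenop each had 23 of the 28 pairs of groups called; the median pair had 32.8% of all genes called. MF arrays were highest, at 11.20, 11.30, 11.02 and 11.45. Astrocyte arrays had 9.85, 10.37 and 9.75 and BM-DC arrays 9.13, 10.19 and 9.91. These 2 groups overlap and did not differ (0.25, adjusted p = 0.662 by limma). ESdM 22 arrays had 7.79, 8.09 and 9.14, ESdM 20 arrays 7.77, 7.45 and 6.87, and the arrays labelled microglia 6.87, 7.25 and 7.16. Hmox1 was detected on 2 of 3 neuron arrays (4.71 and 4.76) and on 2 of 5 CD8 Tnaive arrays (6.20 and 6.25). Arrays labelled microglia thus lay below the myeloid cells of bone marrow and above all neuron and CD8 Tnaive arrays. The neuron arrays were near the detection limit. The CD8 Tnaive arrays were split between 2 clearly detected ones and others without detection.

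Gclm and Srxn1 shared a pattern over the groups. Gclm was at 10.39, 10.57 and 10.73 in ESdM 22, 10.69, 10.71 and 10.67 in ESdM 20 and 10.11, 10.09 and 10.07 on the arrays labelled microglia. BM-DC arrays had 9.92, 10.82 and 10.47, MF arrays 10.03, 9.73, 9.48 and 9.78, and astrocyte arrays 9.25, 8.83 and 9.47. Neurons (6.98, 7.24 and 6.79) and CD8 Tnaive (6.71, 7.29, 6.69, 6.75 and 6.98) were lowest and overlapped. Srxn1 had 10.36, 10.33 and 10.79 in ESdM 22, 10.52, 10.48 and 10.54 in ESdM 20, and 10.43, 10.37 and 10.40 on the arrays labelled microglia. BM-DC arrays (9.88, 10.97 and 10.47) overlapped these, and MF arrays lay below them at 9.32, 9.65, 9.57 and 9.61. Astrocyte arrays had 8.02, 8.54 and 8.51 and neuron arrays 6.52, 6.69 and 5.91, while no CD8 Tnaive array detected the gene. For Srxn1 the steps from MF to astrocytes, to neurons and to T cells each passed the call (adjusted p at most 6.17e-06, limma). Over the 8 group means, the Gclm and Srxn1 levels had a Pearson correlation of 0.97, and each had one of 0.94 with Fth1; these points share arrays and normalization and are given as a description.

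Nqo1 had 7.33, 7.82 and 7.10 on BM-DC arrays, above every other group. Its other group means ran from 4.30 in CD8 Tnaive, where no array detected it, to 5.60 in astrocytes. Astrocytes were below BM-DC by 1.81 (adjusted p = 4.09e-09), and no other neighbours in the order passed the call. A further Nqo1 probe failed the filter. It was detected on 1 of 3 arrays labelled microglia and on no array of any other group. Its mean on BM-DC arrays was 4.36, so the high BM-DC level rests on the tested probe alone. Txnrd1 was highest in MF (7.68, 7.25, 7.69 and 8.17), and BM-DC arrays spread from 6.14 to 7.55. The remaining 6 group means lay between 5.70 and 6.22, and no pair of neighbours in the order differed (adjusted p from 0.0719 to 1.00, limma). The CD8 Tnaive arrays had the widest spread for this gene, with 4.86 as the lowest and 6.71 as the highest.

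Selenop ranged over 8.03 on the log2 scale between group means. MF arrays had 12.40, 11.90, 12.22 and 12.83, far above every other group. CD8 Tnaive arrays had 9.63, 9.73, 9.84, 8.48 and 8.64, astrocyte arrays 8.68, 8.44 and 8.03, and BM-DC arrays 8.13, 8.11 and 8.58. ESdM 22 had 7.07, 7.06 and 6.39, ESdM 20 had 6.06, 6.67 and 6.76, and the arrays labelled microglia 5.80, 5.68 and 5.87. No neuron array detected the gene. The second Selenop probe gave the same highest and lowest groups, but placed CD8 Tnaive (7.80 ± 0.21, SD, n = 5) below astrocytes (9.02 ± 0.39, n = 3) and BM-DC (8.87 ± 0.09, n = 3), where the tested probe placed it above them. The place of T cells among these groups therefore depends on the probe.

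**Figure D1:**
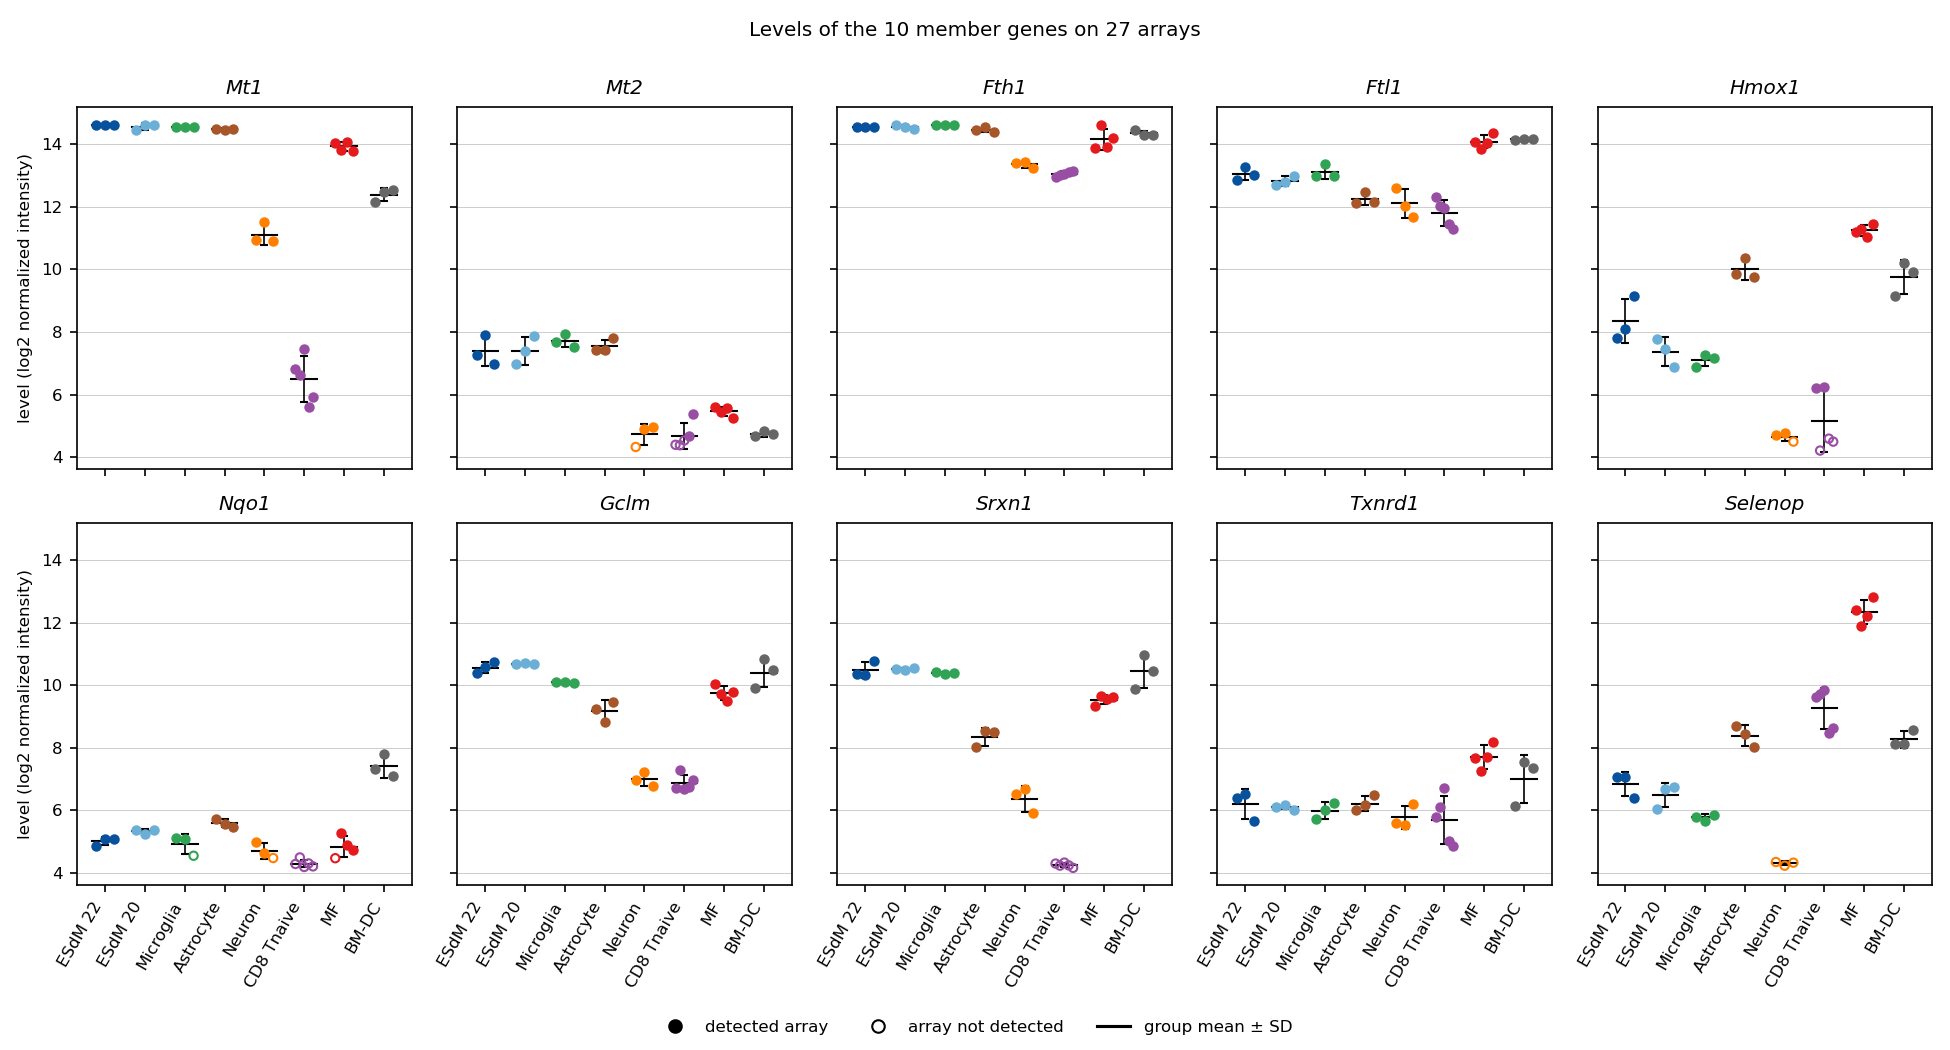
Level of each of the 10 members (log2 normalized intensity, vertical axis) on the 27 arrays, by group along the horizontal axis; filled points are arrays with the gene detected, open points arrays without, and lines give the group mean ± SD. Mt1 and Fth1 sit at the top of the scale in ESdM, microglia-labelled and astrocyte arrays, while MF arrays stand highest for Hmox1, Txnrd1 and Selenop, and BM-DC arrays for Nqo1.

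**Figure D2:**
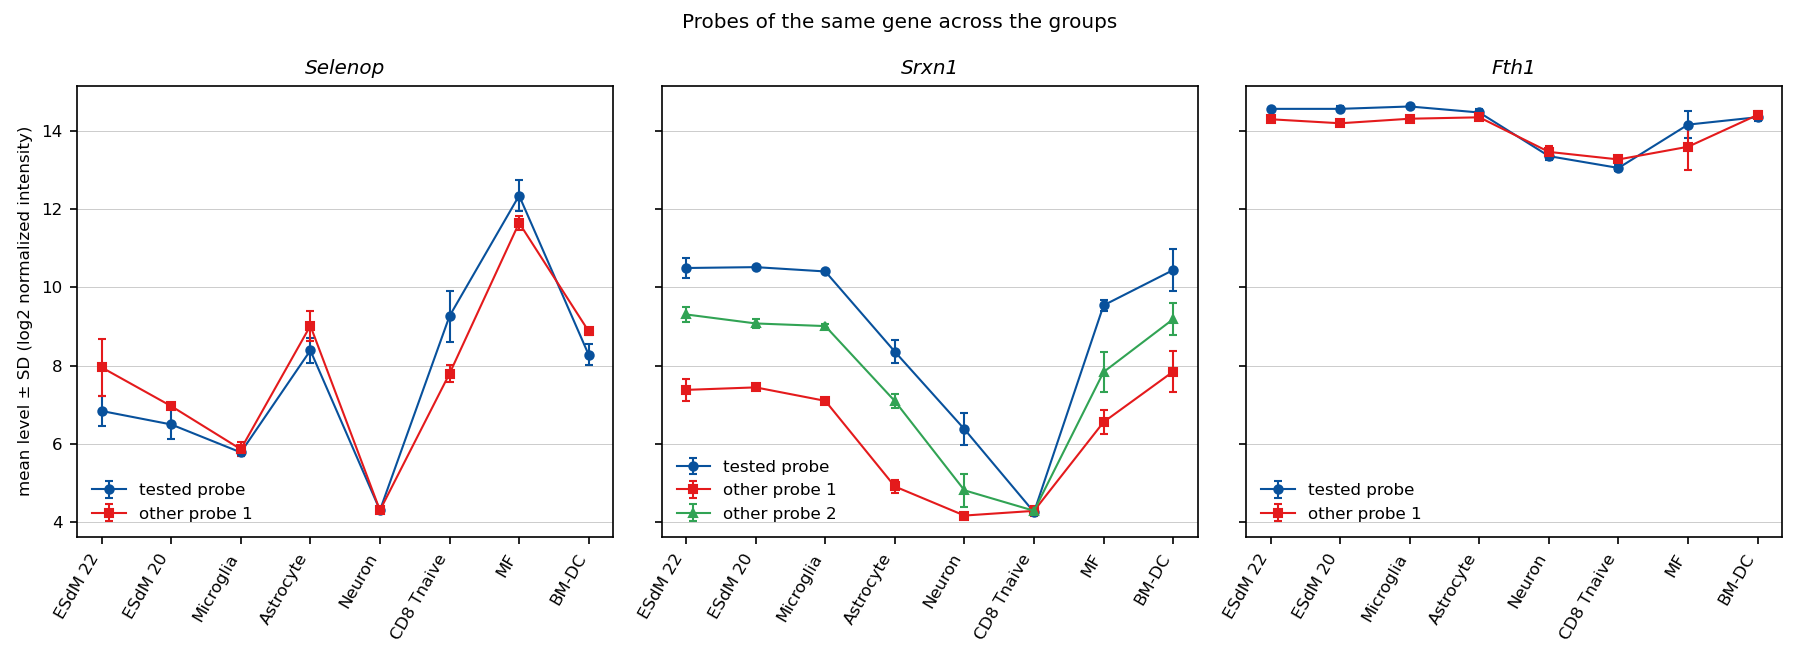
Mean level ± SD (log2 normalized intensity) in each group for the probes of Selenop, Srxn1 and Fth1, 3 of the 4 members with more than 1 probe past the filter, with the tested probe in blue. None of the 3 Srxn1 probes was detected on a CD8 Tnaive array, the group means of the 2 Fth1 probes stay between 13.04 and 14.61, and the Selenop probes change places in CD8 Tnaive.

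The first question was how ES-cell-derived cells compare with cells labelled microglia. No member was called between the mean of both ESdM lines and the arrays labelled microglia (limma), where 2.07% of all genes were called (0.601% higher and 1.47% lower). These were 77 and 188 genes, against 20 higher and 85 lower without background correction. An unadjusted limma p below 0.05 was found for 3 members and for 21.5% of all genes. Selenop was 0.89 higher in ESdM (SE 0.26, adjusted p = 0.0243) and Gclm 0.54 higher (SE 0.17, adjusted p = 0.0362). Both differences were under the size needed for a call, and all 6 ESdM arrays lay above all 3 arrays labelled microglia for these 2 genes; 20.8% of all genes had groups that did not overlap. The second Selenop probe showed a larger difference, 1.59 (adjusted p = 2.74e-06 over all probes), and with the mean over both probes Selenop passed the call (1.24, adjusted p = 5.73e-06). Hmox1 was higher by 0.76, with an interval from 0.00 to 1.51 at 95% (adjusted p = 0.230). Within the 2 shared chips the Selenop differences were 0.92 and 0.97, the Gclm differences 0.44 and 0.58, and the Hmox1 differences 0.83 and 0.54. The 95% intervals of Srxn1 (-0.26 to 0.46), Nqo1 (-0.08 to 0.59), Ftl1 (-0.55 to 0.23), Mt2 (-0.76 to 0.12) and Txnrd1 (-0.50 to 0.83) stayed inside 1 log2 unit; those of Mt1 and Fth1 cannot be read because of the ceiling.

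Of the 140 tested genes in 6 lists on metal ions, iron and haem, glutathione, thioredoxin and peroxiredoxin, NRF2 and selenium, 2 were higher in ESdM than in microglia-labelled arrays and 1 was lower. Tfrc, the transferrin receptor through which cells take up iron, averaged 11.07 in ESdM and 9.84 on the arrays labelled microglia (difference 1.23, adjusted p = 4.66e-07). Hp, which encodes the haemoglobin-binding protein haptoglobin, averaged 9.80 and 7.83 (1.97, adjusted p = 1.85e-11). Slc31a2, a copper transporter gene, was lower, at 5.06 in ESdM and 6.44 on the arrays labelled microglia (-1.38, adjusted p = 5.86e-08). Without background correction, and likewise on the series matrix values, 3 pathway genes were called higher and 0 lower, so the Slc31a2 call was lost. The glutathione, thioredoxin, NRF2 and selenium lists had no called gene.

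The 2 ESdM lines were then set against each other. No member was called, and no gene of the 12814 was called by limma (0% of all genes), with 527 at an unadjusted p below 0.05, Hmox1 among them. Hmox1 was 0.97 higher in ESdM 22 (95% interval 0.10 to 1.85, adjusted p = 1.00), and its arrays did not overlap between the lines; neither did those of Nqo1 (-0.32), and 12.9% of all genes had lines that did not overlap. The Hmox1 difference was 0.18 within the first shared chip and 1.74 within the second, and the ESdM 22 array at 9.14 is on the second. The intervals of 7 other members stayed inside 1 log2 unit, from -0.70 for Nqo1 at the low end to 0.97 for Selenop at the high end, and those of Mt1 and Fth1 cannot be read because of the ceiling.

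**Figure D3:**
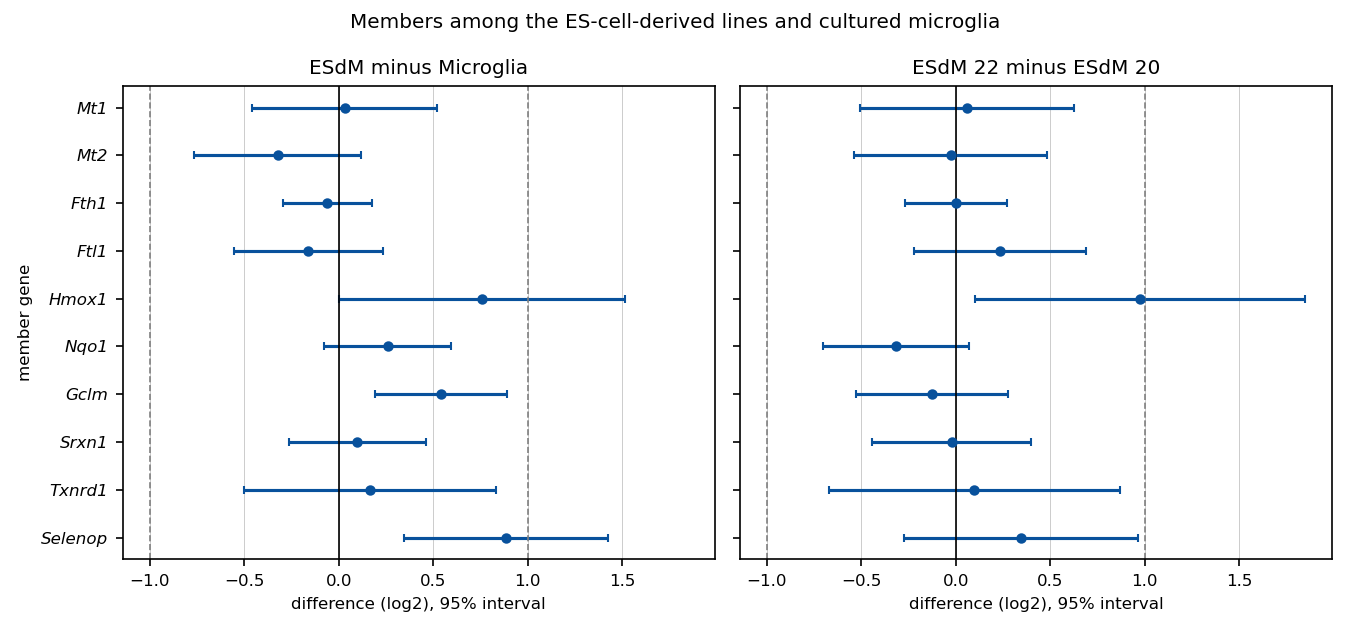
Difference of each member (log2, horizontal axis) between the mean of both ESdM lines and the arrays labelled microglia (left) and between ESdM 22 and ESdM 20 (right), with 95% intervals from the limma fit; dashed lines mark a difference of 1 either way. The whole intervals of Gclm, Selenop and, barely, Hmox1 (from 0.00) lie to the right of 0 on the left panel. On the right panel only that of Hmox1 does.

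The arrays labelled microglia differed from bone marrow MF in 4 members, 1 higher and 3 lower, where limma called 22.5% of all genes (11% higher and 11.5% lower). Selenop was the furthest apart, 94.0-fold lower (difference -6.55, SE 0.28, adjusted p = 2.88e-16, n = 3 and 4). Hmox1 was 17.7-fold lower (-4.15, SE 0.40, adjusted p = 1.85e-09) and Txnrd1 3.27-fold lower (-1.71, SE 0.35, adjusted p = 0.000185). Mt2 was 4.77-fold higher (2.26, SE 0.23, adjusted p = 6.24e-09). The arrays of the 2 groups did not overlap for these 4 genes, nor for 4 further members, where 55.7% of all genes did not overlap. Ftl1 (-0.98, adjusted p = 0.000256) and Srxn1 (0.86, adjusted p = 0.000420) fell short of the size for a call, and without background correction so did Txnrd1 (-0.98). Under median scaling the median of all genes moved to -0.12 in this comparison and the split of all calls to 755 higher and 2499 lower, against 1409 and 1473. The summed macrophage marker level (the sum of the linear normalized intensities of the list) was 23823 to 25010 on the arrays labelled microglia and 56036 to 66001 on MF arrays; its part in these differences was not tested.

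Of the 140 pathway genes, 17 were higher and 24 lower on the arrays labelled microglia than on MF arrays, and 8 of the lower ones are among the 32 iron and haem genes. Slc40a1, which encodes the iron exporter ferroportin, averaged 7.88 on the arrays labelled microglia and 13.29 on MF arrays (-5.41, adjusted p = 2.30e-08). Tfrc averaged 9.84 and 12.55 (-2.71, adjusted p = 5.90e-14). Hp was at least 9.37-fold higher, since no MF array detected it. Of the selenium genes, the Selenop receptor gene Lrp8 was higher, at 9.78 against 6.67 (3.11, adjusted p = 2.73e-15), where Selenop itself was lower. Mtf1, the metal-sensing factor of the metallothionein genes, was also higher (1.47, adjusted p = 2.19e-07). Of the glutathione genes Gstp1 was higher by 3.99, and Gpx3, a secreted glutathione peroxidase, at least 10.9-fold lower.

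Against BM-DC, 7 members passed the call, 2 higher and 5 lower on the arrays labelled microglia (limma, 27.3% of all genes called, 14.9% higher and 12.4% lower). Both metallothioneins were higher, Mt2 by 2.96 (SE 0.25, adjusted p = 1.10e-10) and Mt1 by 2.17 (SE 0.27, adjusted p = 1.88e-07) on the log2 scale. Mt2 was detected on 3 of 3 BM-DC arrays at a detection p below 0.05 and on 0 below 0.01, and Mt1 lies at the ceiling on the arrays labelled microglia. Hmox1 was 6.27-fold lower (-2.65, adjusted p = 6.93e-06), Nqo1 5.63-fold lower (-2.49, adjusted p = 1.71e-11) and Selenop 5.62-fold lower (-2.49, adjusted p = 8.96e-08). Ftl1 (-1.05, adjusted p = 0.000216) and Txnrd1 (-1.02, adjusted p = 0.0242) stood at the size for a call. Txnrd1 was no longer called without Microglia replicate 1 or 2 or without BM-DC replicate 2 or 3 (-0.76 to -1.03), without background correction (-0.55) or on the series matrix values (-0.60), nor was Ftl1 without Microglia replicate 1 or 3 (-0.99 in each case). Gclm (-0.32), Srxn1 (-0.04) and Fth1 (0.27) were not called. The arrays did not overlap for 7 members, where 63.4% of all genes did not overlap. The summed granulocyte marker level was 178 to 180 on the arrays labelled microglia and 3175 to 5296 on BM-DC arrays, and its part in these results was not tested.

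Among the pathway genes 23 were higher and 22 lower on the arrays labelled microglia than on BM-DC arrays. Tfrc was higher here (3.19, adjusted p = 5.96e-15). Slc7a11, the cystine transporter that feeds glutathione synthesis, averaged 7.63 on the arrays labelled microglia and 10.68 on BM-DC arrays (-3.06, adjusted p = 1.11e-11). Alas1, the first enzyme of haem synthesis in most tissues, was lower by 2.84 on the log2 scale (adjusted p = 6.29e-16). Akr1b8, an aldo-keto reductase gene, was higher by 2.99 and the zinc transporter gene Slc30a5 by 2.73.

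Microglia-labelled and astrocyte arrays differed in 3 members, 1 higher and 2 lower, where limma called 35.4% of all genes (16.6% higher and 18.8% lower). Srxn1 was 4.14-fold higher on the arrays labelled microglia (2.05, SE 0.20, adjusted p = 1.94e-09). Hmox1 was 7.45-fold lower (-2.90, SE 0.42, adjusted p = 1.36e-06) and Selenop 6.08-fold lower (-2.60, SE 0.30, adjusted p = 2.95e-08). Gclm (0.90, adjusted p = 0.000260), Ftl1 (0.85, adjusted p = 0.00157) and Nqo1 (-0.68, adjusted p = 0.00282) had adjusted p below 0.05 and smaller differences. Mt2 was not called (0.17), and the Mt1 difference cannot be read because of the ceiling. For 8 members the arrays did not overlap, as for 68.3% of all genes. The astrocyte arrays also carried macrophage markers, with a summed level of 12551 to 18532, and the part of this in the differences was not tested.

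Mt3, a metallothionein gene known from brain, was detected on no array labelled microglia and averaged 10.23 on astrocyte arrays, at least 48.1-fold lower (adjusted p = 5.07e-17, limma). In all, 32 pathway genes were higher and 28 lower on the arrays labelled microglia. Cp, which encodes the iron-oxidising protein ceruloplasmin, averaged 4.74 and 9.81 (-5.07, adjusted p = 9.75e-19). Lcn2, a siderophore-binding protein gene, was at least 13.8-fold lower. Mgst2, a membrane-bound glutathione transferase gene, was higher by 5.67, and Gpx8 was at least 70.9-fold lower.

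Microglia-labelled and astrocyte arrays were next each set against neurons. On the arrays labelled microglia 7 members were higher than in neurons and none lower (limma, 40.5% of all genes called, 20.5% higher and 20.1% lower). Srxn1 was 16.3-fold higher (4.03, SE 0.20, adjusted p = 1.67e-15) and Gclm 8.47-fold (3.08, SE 0.20, adjusted p = 2.03e-13). Mt1 was higher by 3.44 on the log2 scale (SE 0.27, adjusted p = 2.11e-11) and Fth1 by 1.27 (adjusted p = 3.48e-09), both with the arrays labelled microglia at the ceiling; the second Fth1 probe gave 0.85 and no call. Mt2 was 7.94-fold higher (adjusted p = 4.22e-11) and Hmox1 5.42-fold (adjusted p = 1.47e-05), with 2 of 3 neuron arrays detecting each. Selenop was at least 2.28-fold higher (adjusted p = 0.000116), and it was not called without background correction (0.46, adjusted p = 0.128) or on the series matrix values (0.53). Nqo1 (0.21), Txnrd1 (0.20) and Ftl1 (1.00, adjusted p = 0.000284, just under the size for a call) were not called, and 8 members had arrays that did not overlap, against 68.2% of all genes.

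In astrocytes 7 members were higher than in neurons and none lower (limma, 32.4% of all genes called, 17.6% higher and 14.8% lower); both comparisons use the same 3 neuron arrays. Hmox1 was higher by 5.34 on the log2 scale in astrocytes (SE 0.42, adjusted p = 2.68e-11) and Mt2 by 2.82 (adjusted p = 1.79e-10), with 2 of 3 neuron arrays detecting each. Selenop was at least 13.9-fold higher (4.08, adjusted p = 6.24e-12), Gclm 4.53-fold (2.18, adjusted p = 2.93e-10) and Srxn1 3.94-fold (1.98, adjusted p = 3.83e-09). Mt1 was higher by 3.37 (adjusted p = 4.51e-11) and Fth1 by 1.11 (adjusted p = 4.58e-08), both with the astrocyte arrays close to the ceiling. The second Fth1 probe gave 0.88 and no call. Arrays did not overlap for 8 members and for 60.7% of all genes. The summed macrophage marker level was 12551 to 18532 on astrocyte arrays and 234 to 248 on neuron arrays; its part in these differences was not tested.

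Genes of the wider pathway lists were more often higher than lower against neurons. Of the 140 genes 57 were higher and 9 lower on the arrays labelled microglia, which is 40.7% and 6.43%, and 52 were higher and 5 lower in astrocytes, which is 37.1% and 3.57%. None of the 32 iron and haem genes was lower in either comparison, with 14 higher on the arrays labelled microglia and 10 in astrocytes. Trf (transferrin) was higher by 4.90 on the arrays labelled microglia, and Blvrb, a biliverdin reductase gene, by 4.73. In astrocytes Ephx1, an epoxide hydrolase gene, was higher by 6.18, Mgst1 by 5.05 and Mt3 by 4.47 (adjusted p = 2.32e-14). Chac1, whose product breaks down glutathione, ran the other way, at least 109-fold lower on the arrays labelled microglia and lower by 4.24 on the log2 scale in astrocytes.

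Astrocytes and MF differed in 6 members, 1 higher and 5 lower in astrocytes (limma, 31.2% of all genes called, 16.8% higher and 14.4% lower). Mt2 was 4.24-fold higher (2.08, SE 0.23, adjusted p = 1.50e-08). Selenop was 15.5-fold lower (-3.95, SE 0.28, adjusted p = 3.36e-12), Ftl1 3.55-fold (-1.83, SE 0.21, adjusted p = 2.08e-08) and Hmox1 2.38-fold (-1.25, SE 0.40, adjusted p = 0.00845). Txnrd1 (-1.48, adjusted p = 0.000686) and Srxn1 (-1.18, adjusted p = 6.17e-06) were lower too. The second Srxn1 probe averaged 7.09 in astrocytes and 7.84 in MF, under the size for a call, and the third 4.91 and 6.56. Txnrd1 was not called without background correction (-0.87) or on the series matrix values (-0.94), nor Ftl1 with the mean over its probes (-0.95). That mean includes the further Ftl1 probe, which was detected on no astrocyte or MF array (means 4.17 and 4.24). In 9 members the arrays did not overlap, against 60.8% of all genes. Under median scaling the median of all genes was -0.14 and 1658 genes were higher and 2778 lower, against 2147 and 1849. Among the pathway genes 20 were higher and 42 lower, of the iron and haem genes 2 and 16. Tfrc (-4.47) and Slc40a1 (-4.98) were lower in astrocytes, and Mt3 was at least 49.6-fold higher.

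MF and BM-DC, both from bone marrow, differed in 4 members, 3 higher and 1 lower in MF (limma, 17.7% of all genes called, 10.2% higher and 7.51% lower). Selenop was 16.7-fold higher (4.06, SE 0.28, adjusted p = 7.06e-12), Mt1 2.91-fold (1.54, SE 0.26, adjusted p = 1.83e-05) and Hmox1 2.82-fold (1.5, SE 0.40, adjusted p = 0.00296). Nqo1 was 5.94-fold lower (-2.57, SE 0.18, adjusted p = 5.41e-12). Srxn1 on its tested probe (-0.90, adjusted p = 0.000333) and Gclm (-0.65, adjusted p = 0.00496) were lower by less than the size for a call. The other Srxn1 probes lay further apart, at 7.84 in MF and 9.19 in BM-DC, and at 6.56 and 7.85. Srxn1 passed the call with the mean over its probes (-1.18, adjusted p = 3.66e-06, limma) and without BM-DC replicate 1 (-1.18). Arrays did not overlap for 6 members and for 48.1% of all genes. Tfrc averaged 12.55 in MF and 6.64 in BM-DC (5.90, adjusted p = 7.80e-21) and Slc40a1 13.29 and 8.10 (5.19, adjusted p = 7.39e-08). Of the 32 iron and haem genes, 9 were higher and 3 lower in MF. Slc7a11 was lower by 4.81 on the log2 scale. In all, 24 pathway genes were higher and 14 lower; under median scaling the median of all genes was 0.10 and 2052 genes were higher and 709 lower, against 1304 and 962. The BM-DC arrays are also those with the low raw intensity, and the part of that was not tested.

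CD8 Tnaive had the lowest group mean for 8 of the 10 members, all but Hmox1 and Selenop. For Mt2, Gclm, Txnrd1 and Ftl1 the CD8 Tnaive arrays overlapped with neuron arrays and did not differ from them (adjusted p from 0.196 to 0.859, limma). With median scaling CD8 Tnaive was lowest for 3 of the 8 (Mt1, Nqo1 and Srxn1), and neurons were lowest for the others. Against MF 8 members were lower and none higher (limma, 31.1% of all genes called, 14.4% higher and 16.7% lower). Mt1 was 174-fold lower (-7.44, SE 0.23, adjusted p = 4.66e-20) and Srxn1 at least 29.7-fold (adjusted p = 1.13e-19). Hmox1 was lower by 6.09 on the log2 scale (SE 0.35, adjusted p = 3.00e-14), with 2 of 5 CD8 Tnaive arrays detecting it. Selenop was 8.42-fold lower (-3.07, adjusted p = 3.22e-11), Gclm 7.32-fold (-2.87, adjusted p = 1.96e-14), Ftl1 4.84-fold (-2.27, adjusted p = 2.54e-11) and Txnrd1 3.99-fold (-2.00, adjusted p = 2.86e-06). Fth1 was 2.15-fold lower (-1.11, adjusted p = 1.33e-09), but its second probe gave -0.32 (adjusted p = 0.0876 over all probes), and it was not called without MF replicate 2 (-0.95) or with median scaling (-0.84). Mt2 (-0.79, adjusted p = 0.00148) and Nqo1 (-0.54, adjusted p = 0.00352) were not called, and their arrays overlapped; for the 8 called members they did not, against 48.2% of all genes.

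The 5 CD8 Tnaive arrays were not alike. The 2 arrays of 1 chip had lower Mt1 (mean 5.76 against 6.96 on the other 3), Txnrd1 (4.95 against 6.21), Ftl1 (11.37 against 12.09) and Selenop (8.56 against 9.73), with no overlap. Mt2 (5.02 against 4.44) and Fth1 (13.12 against 12.99) were higher there, also with no overlap, and the other members overlapped. The share of all genes that separate in this way was not counted. Full separation of 2 from 3 arrays can also arise by chance. The brightest raw intensity was 45098 and 48002 on the 2 arrays of that chip and 28669 to 29497 on the other 3. The part of this in the differences was not tested. With the other 3 arrays alone 9 members were called, Mt2 among them (-1.02, adjusted p = 9.74e-05). The summed erythroid marker level ran from 2976 to 15507 on CD8 Tnaive arrays and from 139 to 150 on MF arrays. The summed macrophage marker level was 12918 to 15118 on CD8 Tnaive arrays and 56036 to 66001 on MF arrays. Of the 11 macrophage genes, 4 were detected on all CD8 Tnaive arrays and 11 on all MF arrays. The summed dendritic cell marker level was 3471 to 6066 on CD8 Tnaive arrays and 3412 to 4038 on MF arrays. That list shares Ccr7 with the T cell list. Of its 10 genes, 5 were detected on no CD8 Tnaive array, Itgax and Flt3 among them, and 3 on no MF array. The part of these marker levels in the differences was not tested. Among the pathway genes 9 were higher and 58 lower than in MF, which is 6.43% and 41.4%. Blvrb (-5.09), Slc40a1 (-4.77), Gstm1 (-5.63) and the peroxiredoxin gene Prdx4 (-4.30) were among the lower ones, and Gstp1 (3.63) and Fbxl5 (1.37), whose product controls iron-regulatory proteins, among the higher.

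**Figure D4:**
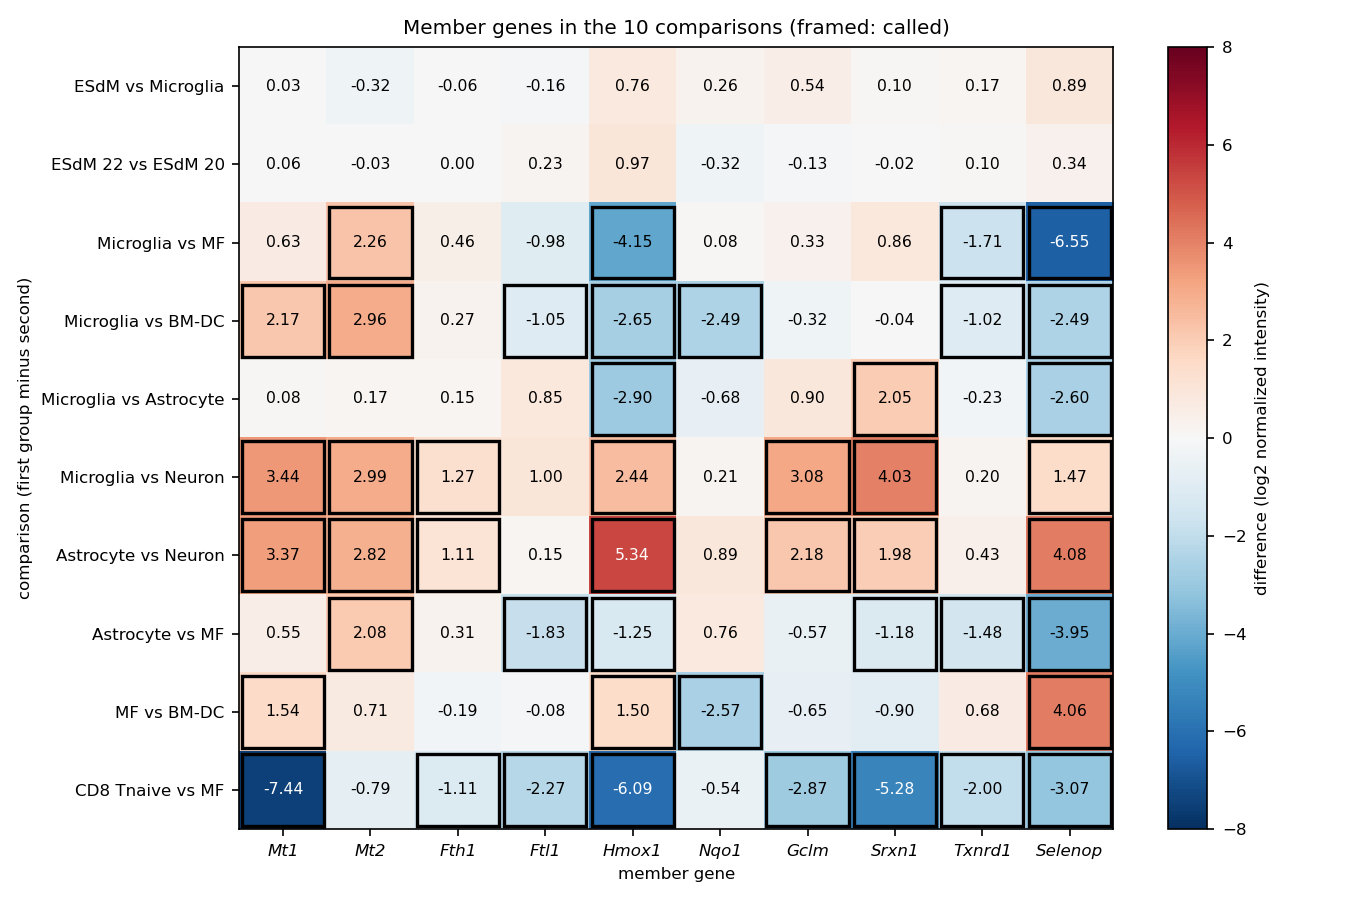
Difference of each member (log2, colour and printed value) in the 10 comparisons, each as first-named minus second-named group, with called differences framed. ESdM against microglia and ESdM 22 against ESdM 20 have no frame, CD8 Tnaive against MF has 8, and Selenop ranges from -6.55 to 4.08.

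**Figure D5:**
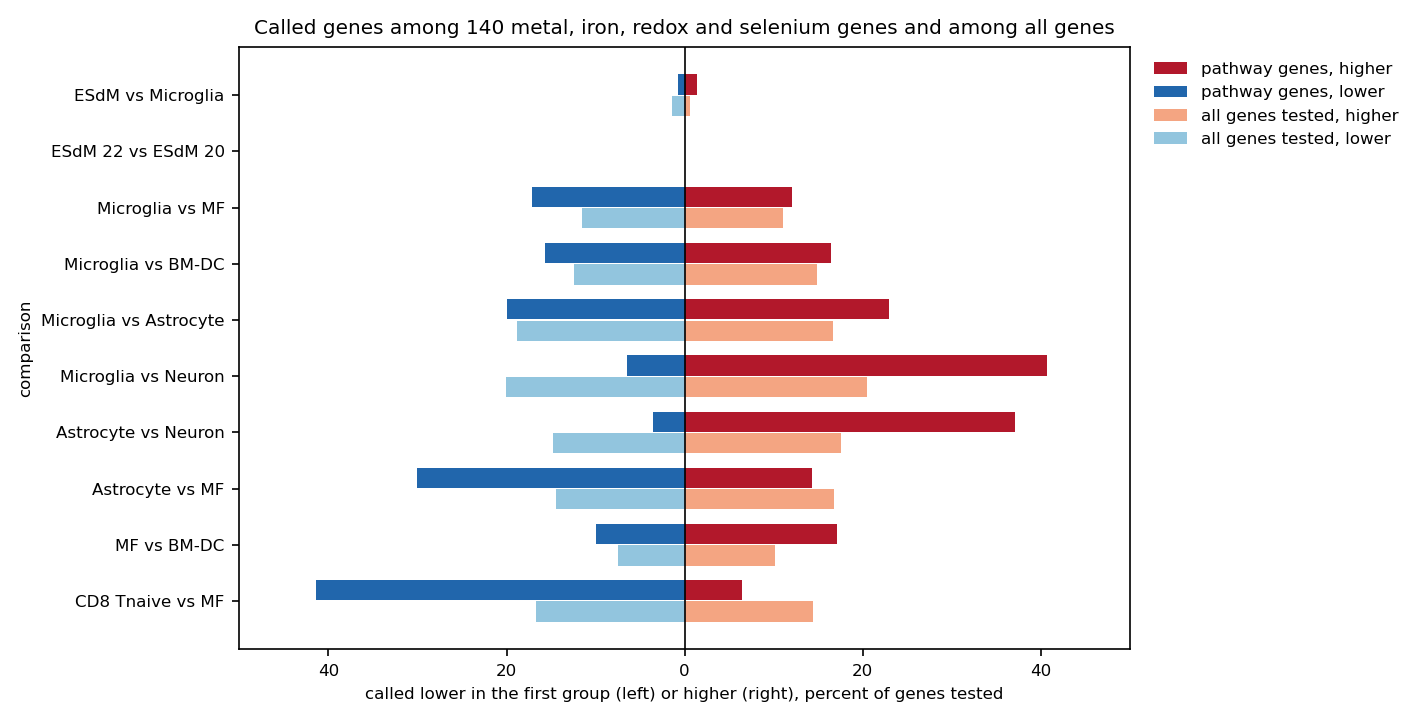
Percent of the 140 pathway genes and of all genes tested that were called higher (right) and lower (left) in each comparison. Against neurons the pathway genes lean to the right (40.7% and 37.1% higher), and for CD8 Tnaive against MF to the left (41.4% lower).

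The members did not follow 1 shared pattern over the groups. Mt1 and Mt2, neighbours on chromosome 8, had a Pearson correlation of 0.75 over the 8 group means, Hmox1 and Txnrd1 0.85, Txnrd1 and Ftl1 0.87, and Mt2 and Selenop -0.25. The tested gene most like each member by the same measure was Inppl1 for Mt1 (0.987), Ube2f for Mt2 (0.979), P2ry6 for Hmox1 (0.975) and Mei1 for Nqo1 (0.985). It was Ptprj for Gclm (0.995), Mgat1 for Txnrd1 (0.985), Mfge8 for Srxn1 (0.990), Osbpl3 for Fth1 (0.992), Adam8 for Ftl1 (0.986) and Tmem175 for Selenop (0.956). These are the highest of 12814 candidates over 8 points and are given as a description. The genes with the widest separation of group means were Mt1 (8.13), Selenop (8.03), Hmox1 (6.59) and Srxn1 (6.25), and the narrowest Fth1 (1.57), against a median of 1.93 over all genes; the ceiling bounds the Fth1 value.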

How the data were processed

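RNA of 27 samples was measured on Illumina mouse bead arrays, and each sample is 1 array. The deposited scanner file holds the summarised probe intensity per array, not normalized, with a detection p-value beside each intensity as deposited. The series matrix holds the authors' processed intensity with values floored at 16; every array has the same quantiles there, and how they were made is not given in the sources used here. Intensities were background-corrected with limma's neqc (limma 3.58.1, R 4.3.3 and version 1.17.8 of data.table; background from the detection p-values, offset 16), quantile normalized and put on the log2 scale. Of 45281 probes, 34885 carry 1 symbol, 18 several and 10378 none in the platform annotation. Only probes detected (p below 0.05) on 3 or more arrays entered the fit, and the brightest probe stood for a gene. limma fitted 1 mean per group over all 27 arrays with 19 residual degrees of freedom. A fold is 2 to the power of the log2 difference; the offset makes it understate low genes. "At least" folds replace an undetected group by the lowest detected signal of its arrays.

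Members and gene lists were chosen with earlier results of these data known. The text names the members, up to 2 called genes per list, comparison and direction, those with the greatest difference, and the closest gene by correlation of group means. Whether replicates came from different cultures or mice is not in the labels, and p-values here reflect variation among these arrays alone, possibly technical. Replicate numbers do not pair the samples (median correlation of same-numbered deviations -0.00419). No 2 arrays held identical values. Precision is limited by the number of arrays. The ESdM replicate numbers come from the titles. Alternatives covered background correction, scaling, source of values, filter, probe choice, arrays in the fit, chip, replicate number and leaving out each replicate. The fit was tested on simulated data.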

Additional observations from a re-analysis of the deposited data

Results flagged for a closer look

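Mt2 in CD8 Tnaive replicate 5 was at 5.38, far from the other 4 arrays of its group, which lay between 4.38 and 4.67. The gap took 0.716 of the range of the group, above the limit of 0.71 for 5 samples. Such a distance arises by chance in about 1 of 20 groups, and 20 combinations of gene and group were looked at. This array also had the highest summed erythroid marker level of its group (15507); its part was not tested.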

How the results depend on the processing

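Member differences were recomputed 970 times under settings other than leaving out a replicate. Of these, 950 kept their side of the threshold, 11 lost a call and 9 gained one. Of 690 with a replicate left out, 675 kept their side, 7 lost a call and 8 gained one. No difference called in the main fit or in the other setting changed direction. Sign changes of differences called in neither were not counted. They did occur, as for Mt1 between microglia and astrocytes with median scaling. With the mean over the probes of a gene, 1 member was called between ESdM and microglia (Selenop, 1.24) in place of 0. With median scaling 3 of 10 members kept both their highest and lowest group. The causes were not tested. With a replicate left out, 0 to 0 members were called for ESdM against microglia and for ESdM 22 against ESdM 20, 4 to 5 for microglia against MF, 5 to 7 against BM-DC, 3 to 4 against astrocytes and 7 to 8 against neurons. The range was 7 to 8 for astrocytes against neurons, 6 to 6 against MF, 4 to 5 for MF against BM-DC and 7 to 8 for CD8 Tnaive against MF. The replicate numbers do not pair the samples; with the replicate block Ftl1 was -1.01 between microglia and MF and passed the call (adjusted p = 0.000245, limma), and Gclm between ESdM and microglia had an adjusted p of 0.0515.

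The count of all genes called depends on the background correction. Without it (and, second, on the series matrix values) it was 105 and 122 for ESdM against microglia in place of 265, 1440 and 1580 for microglia against MF in place of 2882, 1868 and 2035 against BM-DC in place of 3499, 2552 and 2744 against astrocytes in place of 4536, and 3073 and 3307 against neurons in place of 5192. It was 2363 and 2561 for astrocytes against neurons in place of 4150, 2192 and 2369 against MF in place of 3996, 1032 and 1138 for MF against BM-DC in place of 2266, and 2266 and 2436 for CD8 Tnaive against MF in place of 3989. Pathway counts without background correction were 26 in place of 41 against MF, 26 in place of 45 against BM-DC, 38 in place of 62 for astrocytes against MF and 21 in place of 38 for MF against BM-DC; on the series matrix values the last 3 were 29, 40 and 24. Between ESdM and microglia 3 pathway genes were called, 5 with median scaling, with only the compared arrays, with chip as a fixed block, without Microglia replicate 1 or without ESdM 22 replicate 3, and 7 within the first shared chip. Within the second, 174 of all genes were called. Signals near background limit Mt2, Nqo1 and Hmox1 in neurons and T cells, and the ceiling limits Mt1 and Fth1 on ESdM, microglia-labelled and astrocyte arrays.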
